A study of Homo sapiens with 4 samples.

Results

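The subject is the binding map of ZNF416 around 10 genes of the extracellular matrix, its crosslinking and its remodelling: TGFBI, EFEMP2, LOXL2, LOXL4, IGFBP7, COL16A1, COL5A1, NID1, TIMP2 and SERPINE2. They were taken by name, as every peak whose nearest transcription start site (TSS) the authors' annotation gave to one of these genes. This took 11 of the 1386 peaks of the list, 2 for LOXL2 and 1 for each other gene. The genes were chosen because they have a peak in this list, so the presence of a peak is not a result, and no test was made on it. ZNF416 carrying a FLAG tag was mapped by chromatin immunoprecipitation and sequencing (ChIP-seq) in IMR90, an established line of human lung fibroblasts. The ChIP group has 2 libraries and the input group (chromatin sheared without the pull-down) has 2. Per the labels, the cells of these libraries carried the tagged gene from a lentivirus, had been selected with puromycin and were crosslinked with formaldehyde for 10 minutes. The labels name no promoter for the vector. They describe expansion of the surviving cells, with no mention of a single clone. No pull-down from cells without the tag was analysed here.

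ZNF416 belongs to the KRAB zinc finger proteins, DNA-binding proteins of which many silence genes, and the series concerns fibroblasts that are activated by mechanical cues. Lung fibroblasts build and remodel the matrix: they secrete collagens and elastic fibre proteins, crosslink them with lysyl oxidases, and set their turnover with proteases and protease inhibitors. In fibrosis the matrix becomes stiffer through deposition and crosslinking, and stiff matrix is itself a cue that activates fibroblasts. The list gives positions on hg19, a score per peak and an annotation. It measures no expression, so the cell type was not checked against marker genes, and nothing here says whether a gene is active or responds to ZNF416.

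The score is the authors' own whole number for each peak, of unstated scale. It ranks peaks within this list, where it runs from 13 to 355 with a median of 62. The list holds 1 value per peak for all libraries together. Replicate spread can therefore not be given, and the depth of the libraries is unknown. A peak is called a promoter peak when its centre lies within 1 kb of the TSS.

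The peak with the highest score of the 11 lay at the promoter of TGFBI, and its sequence is shown because this is the member promoter that a peak covers and for which a reference sequence was at hand. The bases come from RefSeq on GRCh38.p14, chr5:136028738-136029037, plus strand, and run from 250 bases before the start site to 50 after it. The peak extended from 265 to 124 bp upstream of the TSS of the hg19 annotation. The 127 capital letters mark the part of that stretch inside the window, on the assumption that both annotations use the same start base, which was not tested. For EFEMP2 the window is chr11:65872751-65873050, minus strand, printed 5′ to 3′ along the gene. Its peak lay downstream of the window, and the capitals there mark each match to GGGCGG on either strand.
TGFBI: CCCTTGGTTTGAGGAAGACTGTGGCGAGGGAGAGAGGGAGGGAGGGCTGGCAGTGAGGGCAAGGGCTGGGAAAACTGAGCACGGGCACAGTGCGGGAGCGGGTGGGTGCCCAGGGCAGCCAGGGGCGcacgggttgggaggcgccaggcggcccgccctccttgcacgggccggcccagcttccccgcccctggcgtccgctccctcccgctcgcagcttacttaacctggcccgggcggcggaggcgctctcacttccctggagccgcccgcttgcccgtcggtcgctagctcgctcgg
EFEMP2: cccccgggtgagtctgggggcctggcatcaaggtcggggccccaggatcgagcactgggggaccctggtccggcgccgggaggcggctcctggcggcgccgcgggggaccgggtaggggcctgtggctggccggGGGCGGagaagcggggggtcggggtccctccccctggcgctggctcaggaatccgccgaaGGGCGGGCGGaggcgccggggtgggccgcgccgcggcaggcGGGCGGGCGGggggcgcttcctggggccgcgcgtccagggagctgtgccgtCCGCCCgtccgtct
GGGCGG is the core of the GC box, which SP1-type factors bind. In TGFBI it matched at 98, 66 and 16 bases before the start and at 15 bases after it, so no match lay within the capitals. The capitals were 68.5% G and C, and the rest of the window 75.7%. In EFEMP2 it matched 6 times, and 2 pairs of these matches overlap.

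TGFBI encodes a secreted adhesion protein of the matrix that is induced by TGF-beta and binds collagens and integrins. Its peak, on chromosome 5 from 135364412 to 135364553, was 142 bp wide and scored 109. It ranked 202 of 1386, with a score shared by 9 peaks, and 84.8% of all peaks scored lower. Among the 333 promoter peaks it ranked 42. Its centre lay 195 bp upstream of the TSS, in the authors' promoter class. The promoter peaks nearest in score were those of CDC40 just above, with 113, and TP53I3 just below, with 107, and the promoter peaks of CLCF1, DNMT1 and USP13 had the same score of 109. The next peak on the chromosome was 3032518 bp away, nearest to SIL1.

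EFEMP2 encodes a fibulin that is needed to assemble elastic fibres and helps bring lysyl oxidase to elastin. Its peak, on chromosome 11 from 65639799 to 65640075, scored 67 and was 277 bp wide. It was wider than 88.2% of all peaks, while 55.7% of them scored lower. The centre lay 334 bp downstream of the TSS, in intron 1 of 11 of EFEMP2, and the detailed annotation named a CpG island there. The authors' promoter class does not include it, although it counts as a promoter peak by distance. LTBP3, which encodes a protein that holds latent TGF-beta in the matrix, is also on chromosome 11 and had a peak of score 37 in intron 1 of 26, at 2075 bp downstream of its TSS. The LTBP3 and EFEMP2 peaks were 316056 bp apart, and 2 other peaks lay between them.

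The lysyl oxidase family brought 3 peaks from 2 genes. LOXL2 and LOXL4 encode copper-dependent enzymes that oxidise lysines of collagen and elastin, which starts the crosslinks between chains. LOXL2 had a promoter peak on chromosome 8 from 23261841 to 23261985, 145 bp wide, with its centre 280 bp upstream of the TSS. Its other peak lay farther upstream, from 23268813 to 23268931, 119 bp wide and centred 7239 bp from the TSS, on an AluSx repeat. Both scored 56, and 6827 bp separated them. A score of 56 was the commonest value in the list, held by 45 peaks. A promoter peak together with a peak beyond 1 kb was found for 15 of 965 genes with a peak on the assembled chromosomes (1.55%), LOXL2 included. The LOXL4 peak was intergenic, on chromosome 10 from 100069606 to 100069712, and lay 41708 bp upstream of the TSS. It scored 85, the second highest of the 11, and 72.7% of all peaks scored lower. Its width of 107 bp was the smallest in the list, a width that 104 peaks share. The other family members LOX, LOXL1 and LOXL3 were nearest to no peak. LOXL1-AS1, a separate gene named after LOXL1, was nearest to a peak of score 22, at a signed distance of -29267 bp from its own TSS.

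**Figure D1:**
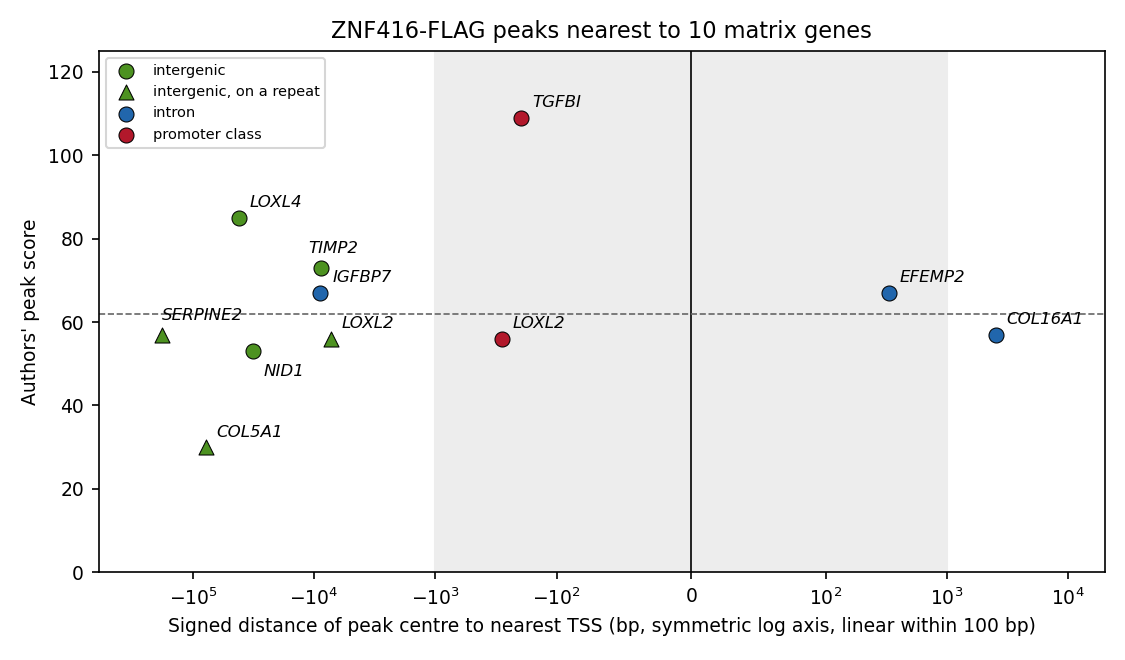
Score of the 11 peaks against the signed distance of the peak centre to the nearest TSS (bp, symmetric log axis; negative is upstream). Colour gives the authors' annotation class, triangles are peaks on repeats, the shaded band is the 1 kb promoter window and the dashed line the median score of 62. Within the band TGFBI stands at 109 and EFEMP2 and LOXL2 at 67 and 56, and 9 of the 11 peaks are upstream.

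The collagen and basement membrane genes among the members had peaks away from the promoter. COL16A1 encodes a collagen that attaches to fibrils and does not form them. Its peak lay inside the gene, in intron 2 of 70, at 2514 bp downstream of the TSS (chromosome 1, 32166962 to 32167246). It scored 57, and with 285 bp it was the widest of the 11. COL5A1 encodes a fibrillar collagen that starts and limits the growth of type I collagen fibrils. Its peak scored 30, the lowest of the 11, and only 11.0% of all peaks scored lower. It was intergenic, on chromosome 9 from 137455386 to 137455519, at 78199 bp upstream of the TSS, and lay on an MLT2B1 repeat. NID1 encodes nidogen, which links laminin to type IV collagen in basement membranes. Its peak was 256 bp wide and scored 53, between genes, 32154 bp upstream of the NID1 TSS (chromosome 1, 236260417 to 236260672). The partner chains COL5A2 and COL5A3 and the second nidogen gene NID2 were nearest to no peak.

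Both protease inhibitor genes had an intergenic peak upstream. TIMP2 encodes an inhibitor of matrix metalloproteinases, and its peak scored 73 with a width of 164 bp (chromosome 17, 76930130 to 76930293). It lay 8742 bp upstream of the TSS and ranked 88 of the 276 peaks at 1 to 10 kb. SERPINE2 encodes protease nexin, a cell-bound inhibitor of thrombin and urokinase. Its peak scored 57 and was 114 bp wide (chromosome 2, 225082914 to 225083027). At 178934 bp upstream it was the farthest of the 11 from a TSS, and it lay on an MLT1H repeat. At that distance the nearest TSS is a label of position, and no contact with the gene was measured. TIMP1, TIMP3, TIMP4 and SERPINE3 were nearest to no peak.

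IGFBP7 encodes a secreted protein that binds insulin-like growth factors weakly and is found in the matrix of vessels and fibroblasts. Its peak scored 67 and was 194 bp wide (chromosome 4, 57985471 to 57985664), at 9016 bp upstream of the IGFBP7 TSS. The annotation placed it in intron 1 of 4 of IGFBP7-AS1, a non-coding RNA gene. The peak is therefore credited to IGFBP7 by its TSS and to IGFBP7-AS1 by the transcript that holds it, and the list does not tell which gene it concerns. The other 6 genes of the family, IGFBP1 to IGFBP6, were nearest to no peak. Over all protein-coding genes 3.66% were nearest to a peak, so having none is the usual case, also for the relatives named above. Of the other fibulin genes, FBLN1, FBLN2, FBLN5, FBLN7, EFEMP1 and HMCN1 were nearest to no peak, while HMCN2, the paralog of HMCN1, had one of score 98 in intron 7, at 33170 bp downstream of its TSS.

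Promoter, intronic and distal peaks of these genes had overlapping scores. Of the 11 peaks, 3 were promoter peaks (27.3%; 29.1% of peaks with a TSS distance). These scored 56, 67 and 109, with a median of 67. The 8 peaks beyond 1 kb scored from 30 to 85, with a median of 57, and 7 of them lay upstream. The difference of 10 between these medians rests on 3 peaks on one side, and over the whole list the medians were 61 for 333 promoter peaks and 58 for 812 others. By distance, the 4 member peaks at 1 to 10 kb ranged from 56 to 73, close to the median of 59 for that class. The 3 at 10 to 100 kb ranged most, from 30 at COL5A1 through 53 at NID1 to 85 at LOXL4, around a class median of 57. The 1 peak beyond 100 kb, at SERPINE2, scored 57 against a class median of 58. No member was among the extremes of its class: the share of the class with a lower score ran from 12.3% for COL5A1 to 86.5% for TGFBI.

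**Figure D2:**
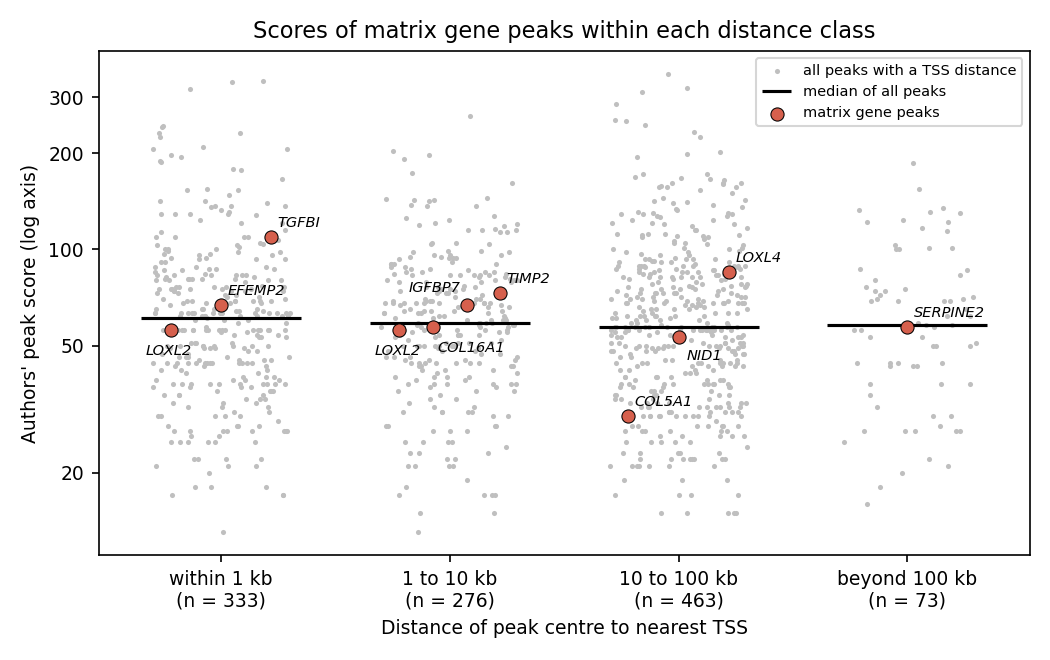
Scores (log axis) of all peaks with a TSS distance in grey, by distance class, with the class median as a black bar and the 11 matrix gene peaks in red. The member peaks lie inside the grey spread of each class, with TGFBI at 109 and LOXL4 at 85 above their class medians of 61 and 57 and COL5A1 at 30 below.

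As a group the member peaks were of middle strength. The 11 scores had a median of 57, that of the 1145 peaks with a TSS distance was 59 and that of all 1386 was 62. At or above the list's median score were 5 of the 11 (TGFBI, LOXL4, TIMP2, EFEMP2 and IGFBP7), where 50.4% of all peaks are by construction and 47.4% of those with a TSS distance. Scores from 53 to 73 held 8 of them, but the ends of this range are the scores of NID1 and TIMP2. The share of the list in that range was not computed. The quartiles of the member scores were 56 and 70, against 40 and 83 for all peaks with a TSS distance. In the upper quartile of the list, at 87 or more, was TGFBI alone. LOXL4, at 85, was also above the upper quartile of 83 for peaks with a TSS distance.

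The widest peaks were not the ones with the highest scores. The widest were the intronic peaks of COL16A1 (285 bp) and EFEMP2 (277 bp) and the intergenic peak of NID1 (256 bp), with scores of 57, 67 and 53. The 2 highest scores, at TGFBI and LOXL4, belonged to peaks of 142 and 107 bp. The 3 peaks on repeats were among the narrower ones, at 114, 119 and 134 bp. The median width of 145 bp equalled that of the whole list, while peaks with a TSS distance had a median of 138 bp.

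**Figure D3:**
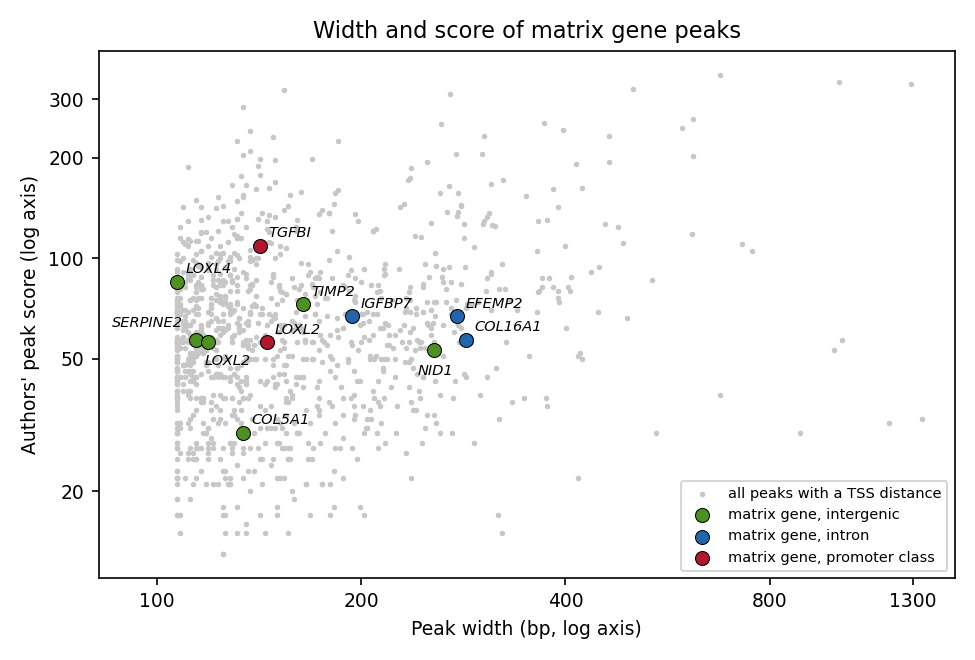
Peak width (bp, log axis) against score (log axis) for all peaks with a TSS distance in grey and the 11 matrix gene peaks coloured by annotation class. COL16A1, EFEMP2 and NID1 stand together at 256 to 285 bp with middle scores, and LOXL4 stands at the lower limit of width with a score of 85.

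The side of the TSS and the class of annotation differed from the rest of the list by count. Of the 11 peaks, 9 lay upstream of the nearest TSS (81.8%), where 41.1% of peaks with a distance did. EFEMP2 and COL16A1 were the 2 downstream. Beyond 1 kb, 7 of 8 were upstream (background 42.4%) and 6 of 8 intergenic (background 45.6%). A downstream peak can fall within the gene itself and an intergenic one cannot, so these counts are not separate. The members are few and were chosen by hand, and no test was made of these shares. Repeats were named for 3 of the 8 peaks beyond 1 kb (37.5%), close to the background of 29.7%.

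The 3 repeats had different names, and both MLT2B1 and MLT1H were long terminal repeats. MLT2B1, a long terminal repeat of the ERVL family, held 7 peaks of the list on 6 chromosomes, with scores of 111, 71, 31, 31, 30, 30 and 27. The COL5A1 peak was one of the pair at 30, and its width of 134 bp equalled their median. The strongest of the 7 was nearest to SPRY1. AluSx, a short interspersed repeat, held 7 peaks with scores from 27 to 95, of which 3 lay nearest to MIR6724-2, a gene on a ribosomal DNA contig. The LOXL2 peak was the third of these by score. MLT1H, of the ERVL-MaLR family, held 2 peaks, that of SERPINE2 with 57 and one nearest to SNORD17 with 58. In the list as a whole, 0 of 333 promoter peaks carried a repeat label. That label shares an annotation entry with other labels, such as the CpG island named at EFEMP2. A promoter peak can therefore carry another label in its place, and the 0 does not show that repeats are absent there. Reads from repeats can map to several copies, and the handling of such reads was not stated in the labels.

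Most member peaks had no close neighbour in the list. No other peak lay within 100 kb of 9 of the 11, and the exceptions were the 2 LOXL2 peaks, each other's neighbours. This is near the share in the list, since 73.4% of peaks on assembled chromosomes had none within 100 kb. The closest neighbour of another gene was 141339 bp from the IGFBP7 peak, at the promoter of NOA1. For TGFBI and SERPINE2 the gap was 3032518 and 2773647 bp.

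The rest of the matrix was searched through 12 gene lists by role, in which 11 lists describe matrix, crosslinking and remodelling genes and the last describes matrix of cartilage, tooth and epithelium. The 11 lists hold 194 genes, of which 18 were nearest to a peak (9.28%) and 6 had a promoter peak (3.09%). Over all 20056 protein-coding genes of the RefSeq table the shares were 3.66% and 1.34%. The 10 members are in these lists and were chosen for their peaks. Without them 8 of 184 genes were nearest to a peak (4.35%) and 3 had a promoter peak (1.63%). Every gene taken out had a peak, so shares without the members are lowered by construction. The lists do not hold every gene of their families. When they were widened to whole families, which was done after the data had been seen, they held 251 genes without the members, of which 14 were nearest to a peak (5.58%) and 3 had a promoter peak (1.2%). The share near a peak thus moved with the choice of genes, from 4.35% to 5.58% against 3.66%, and no test was made of it.

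Among the 8 genes of the narrower lists was one peak stronger than that of any member. LAMB2, a laminin chain gene of basement membranes, had a peak of score 129 in exon 1, in its 5′ UTR, 124 bp downstream of the TSS (chromosome 3, 49170304 to 49170414). CCN5, a matricellular gene of the CCN family, had a promoter peak that scored 65 and lay 132 bp before its TSS (chromosome 20, 43343275 to 43343432). The third promoter peak, of score 42, was that of ADAM17, a membrane protease gene that sheds growth factors and cytokine precursors, at 309 bp upstream. The laminin gene LAMA3, which is used mainly by epithelia, had a peak of score 71 in intron 2 of 74. HTRA1, a secreted protease gene, had one of score 44 in intron 1 of 8 on a MIRb repeat. GPC1, a heparan sulfate proteoglycan gene, had 2 intergenic peaks of score 54 and 35, at 1622 and 49743 bp upstream. CCN2, a matricellular growth factor gene, had the weakest, a score of 19 at 31524 bp upstream.

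The widening added 6 genes with a peak, and none of their peaks lay within 10 kb of a TSS. HMCN2 had the highest score of these, 98. For CCN6, of the CCN family, the score was 53, at 16318 bp upstream. P3H2, which hydroxylates prolines of collagen, had one of score 42 in intron 1 on an AluJb repeat, and COLGALT2, which adds galactose to collagen, one of score 30 in its intron 1. The proteoglycan gene GPC6 followed with 27, also in intron 1 and on an AluJo repeat, and the matrix protease gene ADAMTS15 with 26.

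By list as first drawn up, the adhesive and matricellular genes had 3 of 23 members nearest to a peak (TGFBI, CCN5 and CCN2) and basement membrane genes 3 of 21 (LAMB2, LAMA3 and NID1). Elastic fibre genes had 2 of 19, protease inhibitors 2 of 13, matrix metalloproteinases and related proteases 2 of 36, and proteoglycans 1 of 15. Fibrillar collagens had 1 of 11 and the other collagens 1 of 24, and neither had a promoter peak. The 20 listed genes for other collagen crosslinking and processing, hydroxylation and folding included, had 0. That list left out P3H2 and COLGALT2. The IGF-binding proteins had 1 of 8. The list for cartilage, tooth and epithelium had 1 of 24, LAMA3. Lysyl oxidases had 2 of 5. Beside these counts stands the share of 3.66% over all protein-coding genes. For the lysyl oxidases, protease inhibitors, IGF-binding proteins, fibrillar collagens and other collagens, each gene counted is one of the 10 members, so these shares follow from the choice of genes and no other gene of these lists was nearest to a peak.

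**Figure D4:**
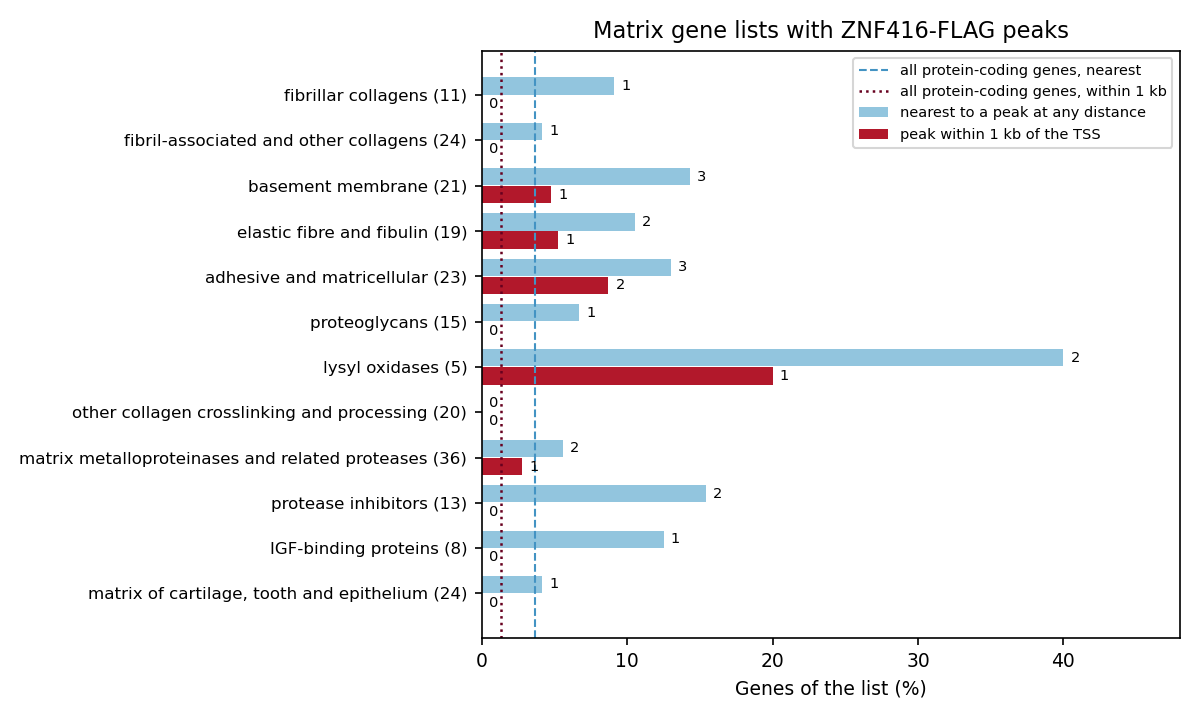
Percentage of the genes of each list (number of genes in brackets) that were nearest to a peak at any distance (light bars) or had a peak within 1 kb of the TSS (dark bars), with the number of genes at each bar. The lines mark 3.66% and 1.34%, the shares over all protein-coding genes, and the 10 genes chosen for their peaks are counted in the bars.

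The promoter sequences were also compared. The RefSeq table held 9 start sites for 7 of the 10 genes: 1 each for TGFBI, EFEMP2, LOXL4, COL16A1 and NID1, and 2 each for COL5A1 and SERPINE2. In 8 of these 9 windows of 300 bases the content of G and C was above the upper quartile of 70.0% over 22199 protein-coding promoters, whose median was 62.3%. LOXL4 had 85.3%, EFEMP2 80.7%, NID1 74.7% and TGFBI 72.7%. The exception was one start of SERPINE2, with 54.0%, and its other start had 73.7%. Genes with a promoter peak had a median of 64.3%, and TGFBI and EFEMP2, the 2 members with both a promoter peak and a sequence, did not stand apart from LOXL4 and NID1, whose peaks are distal.

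**Figure D5:**
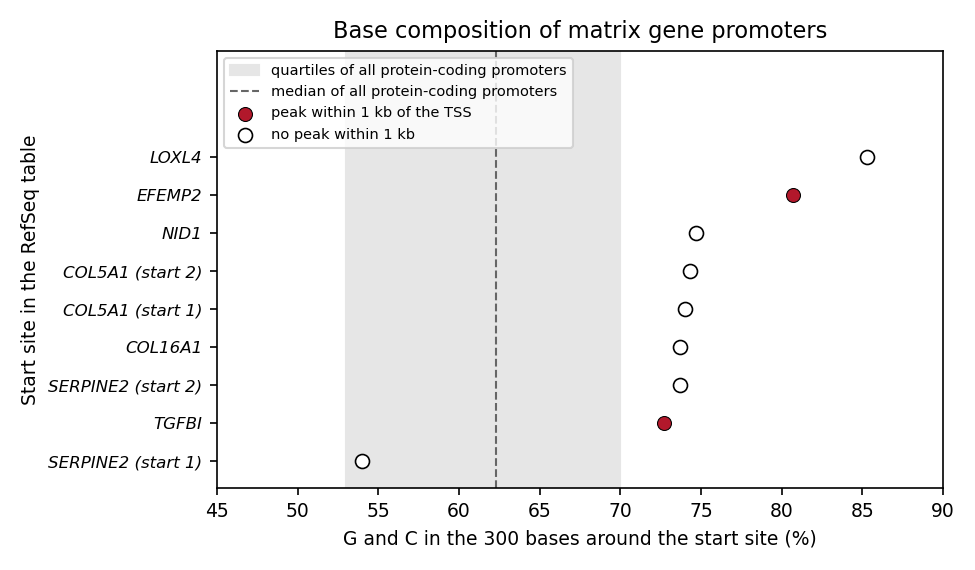
Percentage of G and C in the 300 bases around 9 start sites of 7 matrix genes, with the quartiles (band) and the median (dashed line, 62.3%) of 22199 protein-coding promoters. Filled points are genes with a peak within 1 kb of the TSS; the points lie at 72.7% or more apart from one start of SERPINE2 at 54.0%.

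Matches to 4 motifs were searched on both strands of these windows. GGGCGG was present in every window of the 7 genes, against 56.3% of protein-coding promoter windows. It is made of G and C alone, and these windows were rich in both, apart from one start of SERPINE2. Promoters of like base content were not set beside them, so whether the match exceeds what their composition gives was not tested. TGANTCA, the AP-1 motif, was present in 0 of 7 (6.15% of all promoters). CATTCC, the TEAD motif, was in 0 of 7 (12.2%), and TATAAA in 0 of 7 (9.47%). At these frequencies 0 of 7 says only that the letters are not in these windows. No window reaches the distal peaks, and no sequence under the EFEMP2, LOXL2, COL16A1, IGFBP7 or intergenic peaks was analysed here.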

How the data were processed

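What was analysed is 1 peak list for 2 ZNF416-FLAG ChIP and 2 input libraries of IMR90 cells, read for 51 bases from both ends. Per the file headers, the list is HOMER's annotation on hg19 of narrow peaks after blacklist removal. Per the submitters' processing notes, Bowtie2, Picard, MACS2, deepTools and HOMER were used, named without versions or roles. The labels and headers do not say how replicates were combined or the input was used. Each score is the authors' deposited whole number per peak, of unstated scale. Depth is unknown, and no interval or test was computed.

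Peaks were taken by the deposited gene name. Widths are end minus start plus 1. A promoter peak has its centre within 1 kb of the TSS. Other genes were matched by gene identifier to a RefSeq table (GRCh38.p14), of which no coordinates were set against hg19 positions. 1 list symbol did not match. Promoter windows are RefSeq's, 250 bases before to 50 after the start. Counts and motif searches were tested on simulated data, with Python 3.11.15 and pandas 2.3.3. The members and the gene lists were chosen with earlier results of these data known. Genes named besides the members are list genes with a peak within 10 kb or the strongest peak of their list, relatives of the members, neighbours in score of the strongest promoter peak and genes that hold a peak. An item under this rule is not reported here. CCN2, CLCF1, DNMT1, USP13, SPRY1, SIL1, NOA1, SNORD17, MIR6724-2 and LOXL1-AS1 were named after their values were seen. Alternatives were other promoter windows, higher scores, the gene that holds the peak, merged peaks and 1 strand.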

Additional observations from a re-analysis of the deposited data

How the results depend on the processing

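The list gives no value per library, so no replicate could be left out. No paired analysis was possible because the peak list holds 1 value per peak for all libraries together. The 11 member peaks became 5 at or above the median score and 1 at or above the upper quartile, 10 when the gene holding the peak was used (IGFBP7 was then lost to IGFBP7-AS1) and 11 after merging peaks within 500 bp. The 3 members with a promoter peak became 1 in the upper quartile, and between 2 and 4 under the other definitions. The median width of 145 bp moved to 164 bp at or above the median score, to 142 bp in the upper quartile and to 143.5 bp by the holding gene. The score difference between promoter and other member peaks moved from 10 to 5 with a 5 kb window and to 25.5 with the authors' promoter class, which leaves out EFEMP2. Matrix list genes nearest to a peak fell from 18 to 8 at or above the median score and to 2 in the upper quartile, and those with a promoter peak from 6 to 2 in the upper quartile. Widening the lists to whole families, chosen after seeing the data, gave 24 and 6. Fewer peaks enter at higher scores, so these counts can only fall, and their fall was not compared with that of all peaks. The other values, motif matches on the given strand included (6 against 7), stayed within 1.5 times for counts and did not move for medians.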

Other observations

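Further genes outside the lists and their families whose deposited description names a proteoglycan, thrombospondin domain or sulfotransferase were looked up after the other values had been seen. TSKU, a small leucine-rich proteoglycan gene, was nearest to the strongest of these peaks, with a score of 172 at 18756 bp upstream. HS6ST1, a heparan sulfate sulfotransferase gene, was nearest to 3 intergenic peaks with scores of 53, 38 and 22, and the 2 weaker ones lay on SVA_F repeats. The CHST7 peak, at another sulfotransferase gene, lay in intron 1 with a score of 44. The peaks nearest to THSD1 and PRG3 scored 69 and 46. None of these was a promoter peak.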
